A study of Mus musculus with 18 samples.

Results

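The genes described here are 10 components and targets of the Hippo pathway in mouse lung cancer cells. They are the kinases *Lats1* and *Lats2*, the coactivators *Yap1* and *Wwtr1* (whose protein is called TAZ), the DNA-binding partners *Tead1*, *Tead2*, *Tead3* and *Tead4*, and the target genes *Amotl2* and *Ankrd1*. They were chosen by gene symbol and not by a measured value, though earlier results of these data were known. Each of the 10 names matched 1 row among the 55450 genes of the expression table. RNA-Seq had been performed on ED1SQ4 cells, a murine line derived from a lung cancer of transgenic mice that overexpress cyclin E, so every group shares that origin. Cells received vehicle or 0.5 μM CYC065, an inhibitor of CDK2 and CDK9, for 72 hours. A DNA dye and flow sorting then gave a diploid (2N) and a polyploid (4N) population of each treatment, and a library of unsorted cells was made for vehicle and for CYC065 too. A gate on DNA content takes in diploid cells in G2 or mitosis together with tetraploid cells, which limits the 4N groups as a model of polyploidy.

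Each of the 6 conditions had 3 deposited columns, whose names mark them as parts of 1 library, although the sample titles number them as replicates. Over genes with whole counts, the columns of a condition differed by no more than sampling noise. Chi-square divided by its degrees of freedom was 0.992 to 1.02, against at least 36.5 between conditions. Genes with fractional values were not part of this check and gave 4.94 to 8.85 within a condition. The genes described here had whole counts in every column. The columns were therefore summed, and each condition counted as n = 1 library with 54750203 to 62795507 counts. Differences between cultures were not tested with 1 library per condition, the ratios compare libraries rather than cultures, and 95% intervals cover counting error only. A level is given as TMM-normalized CPM, that is, the count after scaling all libraries to a common size. A gene was called when its log2 ratio passed 1 in either direction, and "rose" and "fell" are kept for called genes.

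The lung cancer label was checked against defining markers of cell types. None of 6 epithelial markers exceeded 1 CPM, the highest being *Krt8* at 0.635 CPM. Neither did any of 4 lung lineage markers, the highest being *Sftpb* at 0.0738 CPM, and 2 of them were at 0 in each library. All 4 mesenchymal markers exceeded 1 CPM, with a summed level of 9386 to 14426 CPM. Fibroblast markers (5 of 5 above 1 CPM) had summed levels of 11609, 9346 and 15492 CPM in CYC065-treated 2N, 4N and unsorted cells and of 6958, 6093 and 8969.9 CPM with vehicle. They were thus higher with CYC065 in each pair of libraries, and their part in the results below was not tested. Leukocyte markers (1 of 4 above 1 CPM) summed to 3.45 to 23.8 CPM, and endothelial markers (1 of 3) to 0.523 to 1.88 CPM.

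In the Hippo pathway, the MST kinases activate LATS1 and LATS2, which phosphorylate YAP and TAZ and thereby keep them out of the nucleus or mark them for degradation. Unphosphorylated YAP and TAZ bind TEAD proteins on DNA and raise transcription of growth and cytoskeletal genes. LATS2 is known for restraining tetraploid cells after failed cytokinesis, when extra centrosomes lower RhoA activity and LATS2 stabilizes p53. Most of this regulation acts on proteins, which RNA-Seq does not measure. *Lats2*, *Amotl2* and *Ankrd1* are themselves transcribed under YAP and TEAD, so their RNA is often read as an output of the pathway.

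TEAD proteins recognize GGAATG, or CATTCC on the other strand. Promoter windows of RefSeq (GRCm38.p6, 250 bases before to 50 after a start) were searched for these letters on both strands, and 8 of the 10 genes had a window. A match was present in 6 of these 8 genes, beside 16.6% of all 27025 genes and 14.7% of all 32851 windows. A gene may have several windows, a match is a description and not a binding site, and no binding was measured. Among the other YAP/TAZ targets listed further on, 4 of the 12 genes with a window held a match. Matches also lay in *Yap1*, *Wwtr1* and *Tead3*. Printed below are those of the 3 genes named above as pathway outputs. Each is a run of 30 bases on the gene's strand with the match in capitals.
Ankrd1, first site: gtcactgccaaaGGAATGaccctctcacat
Ankrd1, second site: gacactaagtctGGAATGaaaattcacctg
Amotl2: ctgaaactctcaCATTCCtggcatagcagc
Lats2: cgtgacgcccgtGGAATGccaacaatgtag
The *Ankrd1* sites lie at chr19:36120037-36120066 and chr19:36119950-36119979 (minus strand), 210 and 123 bases before the start, inside an untranslated exon of a longer annotated transcript. *Amotl2* has its site at chr9:102717727-102717756 (plus strand), 65 bases before the start and again in the untranslated exon of longer transcripts. *Lats2* had 2 windows, and 1 of them held a match. In that window the site begins 5 bases after the start, in the untranslated part of the transcript, at chr14:57746102-57746131 (minus strand).

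Across the 6 libraries, *Ankrd1* was the member whose level varied most, and *Yap1* varied least. *Ankrd1* ran from 29.0 to 292 CPM, a log2 span of 3.33 that was wider than in 98.8% of the 10817 genes with at least 100 counts in each library. *Amotl2* ran from 155 to 349 CPM, or 2.25-fold. The other 8 genes spanned 1.29-fold (*Yap1*) to 1.73-fold (*Wwtr1*), and the median log2 span of those 10817 genes was 0.84. The bar plot of levels shows all 10 genes.

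**Figure D1:**
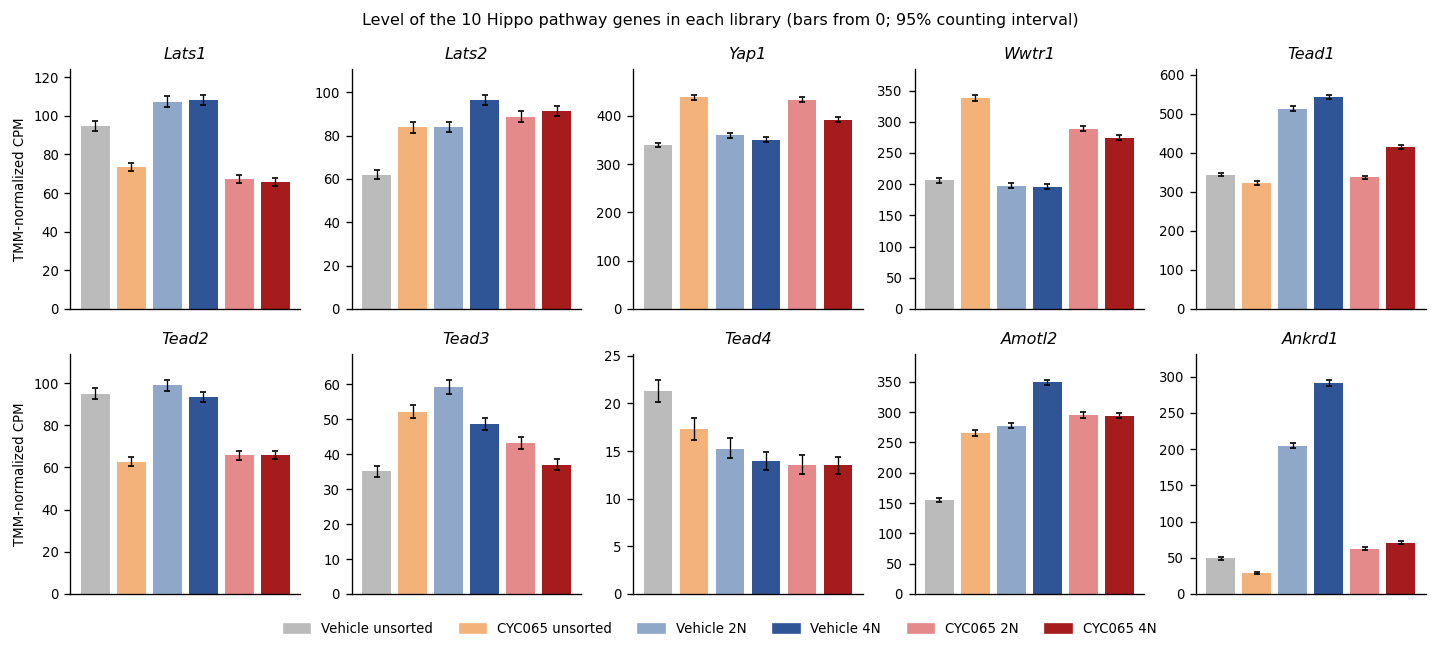
Level of each gene in TMM-normalized CPM (vertical axes from 0) in the 6 libraries, which are coloured by treatment and sort; error bars are 95% counting intervals for n = 1 library. *Ankrd1* stands at 205 and 292 CPM in the sorted vehicle libraries and at 29.0 to 70.9 CPM in the other 4, while *Yap1* stays between 339.7 and 439 CPM.

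The first question was how CYC065 bears on pathway RNA within each sorted population. In 2N cells, 1 of the 10 genes was called, *Ankrd1*, beside 28.1% of the 14093 genes tested (13.3% lower). *Ankrd1* was again the 1 gene called in 4N cells, where 25.5% of 14183 genes were (11.4% lower). In unsorted cells none of the 10 passed the threshold, beside 25.6% of 14084 genes. All 10 genes passed the count filter in each comparison, their lowest summed count being 793. The median log2 ratio of the 10 was -0.31 in 2N, -0.32 in 4N and 0.14 in unsorted cells, and the medians of all genes tested were -0.07, -0.03 and -0.07. An interval that excludes 0 was seen for 10, 9 and 10 of the 10 genes, and was common at this depth, since 84.9%, 84.6% and 82.8% of all genes had one. The 3 comparisons use separate libraries, but those of 2N and 4N cells share them with the sort comparisons below.

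**Figure D2:**
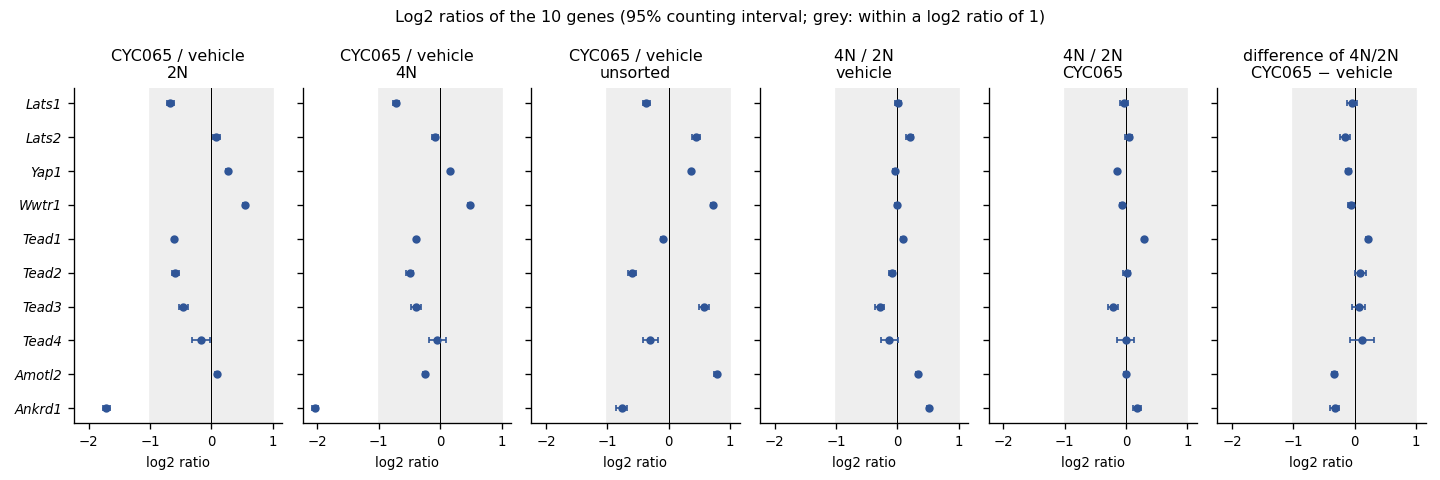
Log2 ratio of each gene (horizontal axes) in the 6 comparisons with its 95% counting interval; the grey band marks log2 ratios within 1. *Ankrd1* leaves the band in 2N (-1.71) and 4N cells (-2.04), and no other point does.

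LATS1 and LATS2 are paralogous kinases that phosphorylate YAP and TAZ. *Lats1* (ENSMUSG00000040021.13, chr10:7681214-7716460, plus strand) measured 94.8 CPM in vehicle and 73.4 CPM in CYC065-treated unsorted cells. Its sorted vehicle levels were 107 CPM (2N) and 108 CPM (4N), and its sorted CYC065 levels 67.2 CPM (2N) and 65.7 CPM (4N). The 3 CYC065 libraries were thus the lowest of the 6. Neither treatment separated 4N from 2N cells beyond counting error. The log2 ratio of CYC065 to vehicle was -0.67 (-0.73 to -0.62) in 2N, -0.72 (-0.78 to -0.67) in 4N and -0.37 (-0.43 to -0.31) in unsorted cells, each short of the threshold.

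*Lats2* (ENSMUSG00000021959.16, chr14:57689662-57758388, minus strand) measured 61.8 CPM in vehicle and 83.8 CPM in CYC065-treated unsorted cells. With vehicle it stood at 84.0 CPM in 2N and 96.4 CPM in 4N cells, and with CYC065 at 88.7 and 91.2 CPM. The vehicle 4N library was the highest and the unsorted vehicle library the lowest. The neighbours CYC065 4N and CYC065 2N did not differ beyond counting error, nor did vehicle 2N and CYC065 unsorted. In the sort comparison, 4N over 2N cells gave 0.20 (0.14 to 0.26) with vehicle and 0.04 (-0.01 to 0.09) with CYC065. The difference between these log2 ratios was -0.16 (-0.24 to -0.08). CYC065 over vehicle was 0.08 (0.02 to 0.14) in 2N, -0.08 (-0.13 to -0.03) in 4N and 0.44 (0.37 to 0.50) in unsorted cells, and the 4N value turned to 0.06 when libraries were scaled by size only. Another annotated gene, Gm49361, covers 42.4% of the exon bases of *Lats2* on the same strand and had a count of 0 in the table.

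Per kilobase of exon (all annotated exons of a gene merged), the proportion of *Lats2* to *Lats1* can be read inside each library without scaling between libraries. It was 0.820 in 2N and 0.932 in 4N cells with vehicle, and 1.38 and 1.45 with CYC065. Unsorted cells gave 0.683 with vehicle and 1.19 with CYC065. *Lats2* was therefore the lower of the pair in the 3 vehicle libraries and the higher in the 3 CYC065 libraries. The log2 change of the proportion with CYC065 was 0.75 (0.67 to 0.83) in 2N, 0.64 (0.56 to 0.72) in 4N and 0.81 (0.72 to 0.89) in unsorted cells. Comparing 4N with 2N cells, it was 0.19 (0.11 to 0.26) with vehicle and 0.07 (-0.01 to 0.15) with CYC065.

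YAP and TAZ are the coactivators that LATS kinases hold in check. *Yap1* (ENSMUSG00000053110.13, chr9:7931999-8004596, minus strand) measured 359.9 CPM in 2N and 350.4 CPM in 4N cells with vehicle. CYC065-treated cells had 433 CPM (2N) and 392 CPM (4N). Its unsorted levels were 339.7 CPM with vehicle and 439 CPM with CYC065, so that each CYC065 library lay above each vehicle library. The log2 ratio to vehicle was 0.27 (0.24 to 0.29) in 2N, 0.16 (0.14 to 0.19) in 4N and 0.37 (0.34 to 0.40) in unsorted cells. *Wwtr1* (ENSMUSG00000027803.14, chr3:57455649-57575910, minus strand) had the same order of treatments, with 198, 196 and 206 CPM in vehicle 2N, 4N and unsorted cells. The corresponding CYC065 libraries held 289, 275 and 339 CPM. Its log2 ratios were 0.55 (0.51 to 0.58), 0.49 (0.45 to 0.52) and 0.72 (0.68 to 0.75), the highest of the 10 genes in both sorted populations.

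*Wwtr1* exceeded *Yap1* per kilobase in all 6 libraries. By counts alone *Yap1* was the higher in each, with 20219 against 11098 in vehicle 2N cells. Which gene is higher thus rests on the merged exon lengths, 4.78 kb for *Wwtr1* and 9.26 kb for *Yap1*. The lengths of the transcripts in these cells were not measured, and the counting intervals do not cover them. The proportion per kilobase was 1.06 in 2N, 1.08 in 4N and 1.17 in unsorted vehicle cells. It was 1.29 and 1.36 in CYC065-treated 2N and 4N cells, with the highest value in CYC065-treated unsorted cells. Its log2 change with CYC065 was 0.28 (0.24 to 0.32) in 2N, 0.32 (0.28 to 0.37) in 4N and 0.35 (0.31 to 0.39) in unsorted cells. Between 4N and 2N cells *Yap1* differed by -0.04 (-0.07 to -0.01) with vehicle and -0.14 (-0.17 to -0.12) with CYC065, and *Wwtr1* by -0.01 (-0.05 to 0.03) and -0.07 (-0.10 to -0.04).

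TEAD proteins bring YAP and TAZ to DNA. *Tead1* (ENSMUSG00000055320.17, chr7:112679318-112906807, plus strand) made up 45.1% to 57.0% of the family's counts per kilobase, the largest share in each library. *Tead2* (ENSMUSG00000030796.17, chr7:45215753-45233644, plus strand) followed with 25.7% to 35.2%. *Tead3* (ENSMUSG00000002249.21, chr17:28331671-28350817, minus strand) gave 9.26% to 15.7%, and *Tead4* (ENSMUSG00000030353.15, chr6:128224288-128300823, minus strand) 5.48% to 10.5%. The order of the family was the same in 5 libraries, while in unsorted vehicle cells *Tead4* (10.5%) stood above *Tead3* (9.26%). By counts alone *Tead3* was the higher there too, 2008 against 1220, so that exception rests on the merged exon lengths.

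*Tead1* measured 513 CPM in 2N and 544 CPM in 4N cells with vehicle, and 337 and 415 CPM with CYC065. In unsorted cells it had 345 CPM with vehicle and 322 CPM with CYC065. The sorted vehicle libraries were therefore the highest, and unsorted vehicle cells lay among the CYC065 libraries. CYC065 over vehicle was -0.61 (-0.63 to -0.58) in 2N, -0.39 (-0.41 to -0.37) in 4N and -0.10 (-0.13 to -0.07) in unsorted cells. *Tead1* had the largest 4N over 2N ratio of the 10 genes with CYC065, 0.30 (0.27 to 0.32), and the vehicle ratio was 0.08 (0.06 to 0.11). The difference of these ratios was 0.22 (0.18 to 0.25).

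*Tead2* measured 99.1, 93.3 and 94.9 CPM in vehicle 2N, 4N and unsorted cells, and 65.8, 66.1 and 62.6 CPM in the corresponding CYC065 libraries. All 3 CYC065 levels were below all 3 vehicle levels, with log2 ratios of -0.59 (-0.65 to -0.53), -0.50 (-0.56 to -0.44) and -0.60 (-0.66 to -0.54). *Tead3* had 59.2, 48.6 and 35.0 CPM with vehicle and 43.1, 37.0 and 52.1 CPM with CYC065 in the same order. Its log2 ratio to vehicle was -0.46 (-0.53 to -0.38) in 2N and -0.39 (-0.47 to -0.31) in 4N cells but 0.57 (0.49 to 0.66) in unsorted cells. *Tead4*, the member with the fewest counts, had 15.3, 13.9 and 21.3 CPM with vehicle and 13.6, 13.5 and 17.3 CPM with CYC065. Its log2 ratio to vehicle was -0.17 (-0.31 to -0.03) in 2N and -0.30 (-0.42 to -0.18) in unsorted cells, and the 4N ratio of -0.05 (-0.18 to 0.09) was not separable from 0 at this depth.

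**Figure D3:**
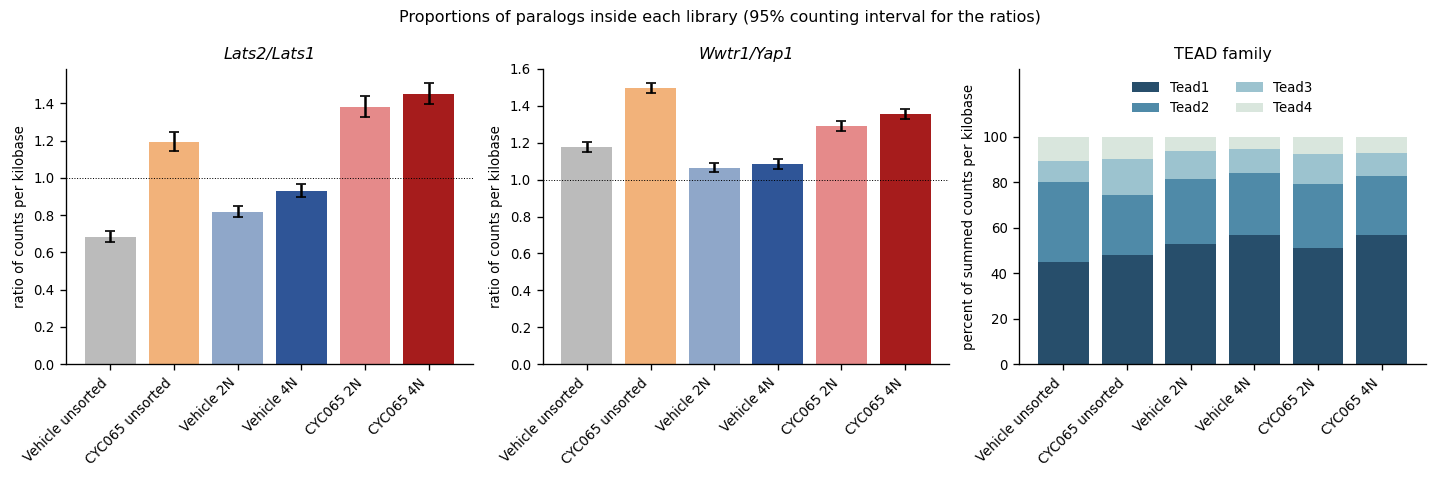
Proportions inside each of the 6 libraries: *Lats2* to *Lats1* and *Wwtr1* to *Yap1* as ratios of counts per kilobase of exon (bars from 0, 95% counting intervals, dotted line at 1), and each TEAD gene as a percentage of the family's counts per kilobase. *Lats2* to *Lats1* is 0.683 to 0.932 with vehicle and 1.19 to 1.45 with CYC065, and *Tead1* is the largest TEAD share in every bar.

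*Amotl2* encodes an angiomotin-family protein that binds YAP at junctions and is itself a YAP target. *Amotl2* (ENSMUSG00000032531.15, chr9:102716672-102733418, plus strand) measured 278 CPM in 2N and 349 CPM in 4N cells with vehicle, and 295 and 294 CPM with CYC065. Unsorted cells had 155 CPM with vehicle and 265 CPM with CYC065. The unsorted vehicle library stood below the other 5, and the vehicle 4N library above them. CYC065 over vehicle was 0.09 (0.06 to 0.12) in 2N, -0.25 (-0.27 to -0.22) in 4N and 0.78 (0.74 to 0.82) in unsorted cells. In the sort comparison 4N over 2N cells gave 0.33 (0.30 to 0.36) with vehicle and -0.01 (-0.04 to 0.02) with CYC065, a difference of -0.34 (-0.38 to -0.29).

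*Ankrd1* encodes a nuclear and sarcomeric ankyrin-repeat protein that is widely used as a readout of YAP activity. *Ankrd1* (ENSMUSG00000024803.9, chr19:36111961-36120099, minus strand) measured 205 CPM (11509 counts) in 2N and 292 CPM (17098 counts) in 4N cells with vehicle. CYC065-treated cells had 62.6 CPM (3657 counts) and 70.9 CPM (4799 counts). In unsorted cells it stood at 49.4 CPM (2830 counts) with vehicle and 29.0 CPM (1598 counts) with CYC065. Within each population the CYC065 library was below its vehicle library, yet the unsorted vehicle library was below both sorted CYC065 libraries. *Ankrd1* fell with CYC065 in sorted cells, with log2 ratios of -1.71 (-1.77 to -1.66) in 2N and -2.04 (-2.09 to -1.99) in 4N cells, or to 0.305 and 0.243 of its vehicle level. Its log2 ratio in unsorted cells was -0.77 (-0.86 to -0.68), short of the threshold. Among the 10 genes it was the only one called in any comparison, under each alternative in which calls were counted.

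The second question was whether polyploid cells differ from diploid cells of the same treatment. None of the 10 genes was called between 4N and 2N cells with vehicle, beside 2.66% of 13364 genes, nor with CYC065, beside 3.58% of 14183 genes. The vehicle ratios of the 10 ran from -0.29 (*Tead3*) to 0.51 (*Ankrd1*), and the CYC065 ratios from -0.22 (*Tead3*) to 0.30 (*Tead1*). With vehicle, *Ankrd1* gave 0.51 (0.48 to 0.54), *Amotl2* 0.33 and *Lats2* 0.20, the 3 highest ratios of the 10. With CYC065 the corresponding values were 0.18 (0.12 to 0.24), -0.01 and 0.04. The difference between the treatments in the 4N over 2N ratio passed the threshold for none of the 10, beside 7.11% of 14484 genes. Intervals excluded 0 for 7, 5 and 7 of the 10 genes in these 3 comparisons, beside 53.8%, 55.6% and 49.8% of all genes. The difference was lowest for *Amotl2* (-0.34) and *Ankrd1* (-0.33, with an interval of -0.40 to -0.26). Fewer cells expressing a gene and less of its RNA per cell cannot be told apart in such bulk libraries. These ratios compare relative levels between libraries, and total RNA per cell was not measured.

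Unsorted cells did not lie between the sorted populations, a point examined after its values were seen. With vehicle, 7 of the 10 genes were lower and 2 higher in unsorted cells than in both gates beyond counting error, as were 61.3% of the 13810 genes tested in either direction. With CYC065, 5 were lower and 4 higher, beside 51.6% of 14395 genes. *Ankrd1* was the only member outside both gates by a log2 ratio of over 1, which held for 7.70% of genes with vehicle and 4.24% with CYC065. Its unsorted vehicle level was -2.05 (-2.11 to -1.99) against the 2N and -2.56 (-2.62 to -2.50) against the 4N library. With CYC065 these values were -1.11 (-1.19 to -1.02) and -1.29 (-1.37 to -1.21). Sorted and unsorted cells differ in dye, sorting and the cells included, which cannot be told apart here.

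Other genes of the pathway were taken as lists. Of 26 upstream genes, 25 were tested, and 4 were called in 2N, 1 in 4N and 2 in unsorted cells with CYC065, each of them higher. That is 16.0% of the list in 2N and less in 4N and unsorted cells, where 14.9%, 14.1% and 11.7% of all genes were called higher and 28.1%, 25.5% and 25.6% in either direction. Their median log2 ratios were -0.05, 0.04 and 0.26. *Fat4*, an atypical cadherin at the top of the pathway, rose in all 3 populations, from 71.2 to 170.2 CPM in 2N (1.26), from 79.8 to 163 CPM in 4N (1.03) and from 68.4 to 191 CPM in unsorted cells (1.48). *Dchs1*, the ligand of FAT4, rose in 2N cells from 3.70 to 11.2 CPM (1.59, 1.36 to 1.82) and stood at 8.19 and 8.43 CPM in vehicle and CYC065 4N cells. It was also the 1 upstream gene called between 4N and 2N vehicle cells (1.14, 0.91 to 1.39) and in the difference of ratios (-1.55, -1.83 to -1.26).

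*Amot*, the paralog of *Amotl2* that tethers YAP in the cytoplasm, rose in 2N cells from 126 to 259.7 CPM (1.04, 1.00 to 1.09) and in unsorted cells from 136 to 301 CPM (1.15, 1.11 to 1.19). Its 4N levels were 130.0 and 252 CPM. *Map4k1*, a kinase of the MAP4K family that can act on LATS, rose in 2N cells on few counts, from 43 to 106 (1.23, 0.72 to 1.79). The kinases closest to LATS were not called, with *Stk3* (MST2) at 76.4 and 71.7 CPM and *Stk4* (MST1) at 80.5 and 69.8 CPM in vehicle and CYC065 2N cells. The *Stk3* log2 ratio was -0.09 in 2N, -0.18 in 4N and 0.59 in unsorted cells, and that of *Stk4* -0.20, -0.13 and -0.01. *Nf2*, which recruits LATS to membranes, had 129 and 87.0 CPM in vehicle and CYC065 2N cells (-0.57). It differed less in 4N (122 and 111 CPM, -0.15) and unsorted cells (106 and 102 CPM, -0.06).

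STRIPAK is a phosphatase complex that opposes the MST kinases, and 1 of its 9 subunits (11.1%) was called in each CYC065 comparison, below the share of all genes called. That subunit was *Strip2*, which fell from 3.61 to 0.855 CPM in 2N (-2.07, -2.56 to -1.63) and from 3.74 to 0.871 CPM in 4N cells (-2.09, -2.54 to -1.68). In unsorted cells it fell from 1.94 to 0.763 CPM (-1.33, -1.89 to -0.82), on 42 to 219 counts in all 6 libraries. VGLL proteins compete with YAP for TEAD, and neither *Vgll3* nor *Vgll4*, the 2 of 4 with enough counts, was called. *Vgll3* measured 17.9 and 9.12 CPM and *Vgll4* 30.2 and 49.2 CPM in vehicle and CYC065 2N cells.

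Besides *Amotl2* and *Ankrd1*, 19 listed YAP/TAZ targets were tested. With CYC065, 3 rose and 2 fell in 2N cells, 4 rose and 3 fell in 4N cells, and 8 rose and 2 fell in unsorted cells. That is 26.3%, 36.8% and 52.6% of the list beside the 28.1%, 25.5% and 25.6% of all genes given above. The list's median log2 ratios were -0.10, -0.15 and 0.43. None was called between 4N and 2N cells of either treatment or in the difference of ratios. The called targets thus lay on both sides in each population.

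*Myof*, a membrane repair protein, fell in all 3 populations, from 852 to 303 CPM in 2N cells (-1.49, -1.52 to -1.47) and with log2 ratios of -1.38 in 4N and -1.36 in unsorted cells. *Axl*, a receptor tyrosine kinase, also fell in all 3, from 1059 to 326 CPM in 4N cells (-1.70, -1.72 to -1.68) and with ratios of -1.45 in 2N and -1.02 in unsorted cells. *Fjx1*, a kinase of the Fat and Dachsous system, fell in 4N cells from 7.93 to 2.61 CPM (-1.60, -1.86 to -1.35). *Gadd45a*, a stress gene that p53 also induces, rose from 3.63 to 28.6 CPM in 2N (2.98, 2.77 to 3.20) and from 3.92 to 24.5 CPM in 4N cells (2.64, 2.44 to 2.85), and had a ratio of 1.57 in unsorted cells. *Tgfb2*, a secreted TGF-β ligand, rose in all 3 populations, to 44.4 CPM from 11.6 in 2N, to 43.3 CPM from 10.7 in 4N and to 64.8 CPM from 6.25 in unsorted cells. The last of these was the largest ratio of the list (3.37, 3.22 to 3.54).

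*Ccdc80*, a matrix protein, rose from 36.8 to 132 CPM in 2N (1.84, 1.77 to 1.91) and from 63.8 to 216 CPM in unsorted cells (1.76, 1.71 to 1.82), and had a ratio of 1.05 in 4N cells. In unsorted cells the ectonucleotidase *Nt5e* rose from 15.4 to 53.9 CPM (1.81, 1.70 to 1.92; 1.02 in 4N cells), and *F3*, tissue factor, from 37.7 to 128 CPM (1.77, 1.70 to 1.84). *Ccn1* and *Ccn2* encode matricellular proteins used as YAP readouts beside *Ankrd1*. *Ccn1* measured 125 and 154 CPM in vehicle 2N and 4N cells and 116 and 86.3 CPM with CYC065. *Ccn2* measured 138 and 205 CPM with vehicle and 151 and 114 CPM with CYC065, and neither was called in sorted cells. Both rose in unsorted cells, *Ccn1* from 43.9 to 89.6 CPM and *Ccn2* from 82.7 to 194 CPM.

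**Figure D4:**
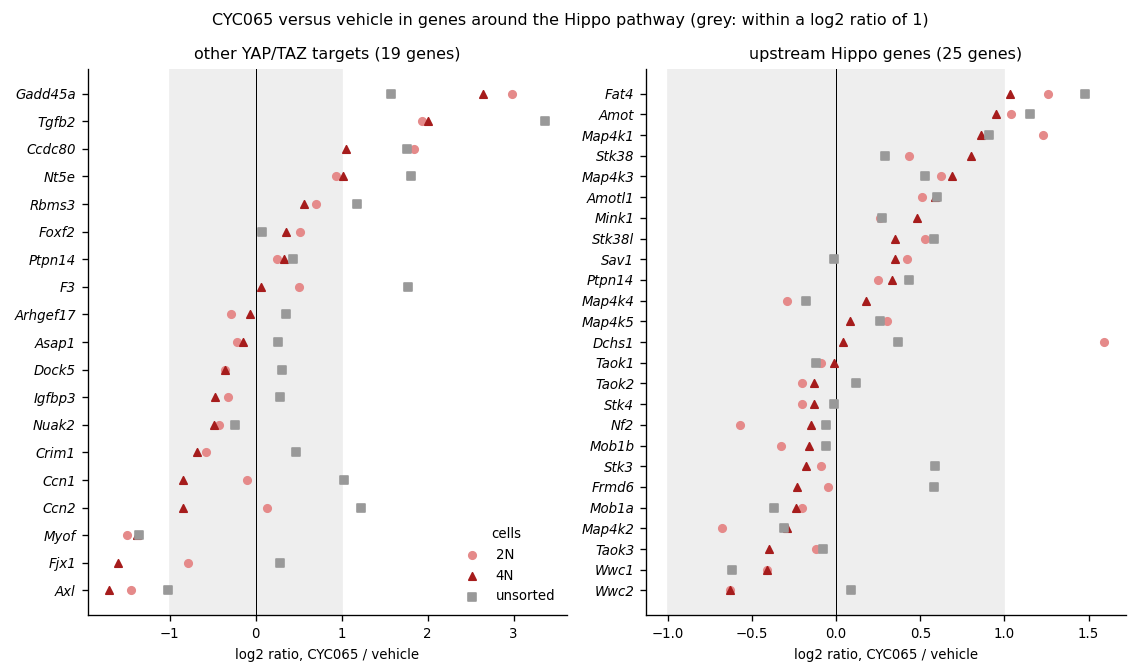
Log2 ratio of CYC065 to vehicle (horizontal axes) for the 19 other YAP/TAZ targets and the 25 upstream genes tested, in 2N (circles), 4N (triangles) and unsorted cells (squares); the grey band marks log2 ratios within 1. Targets lie on both sides of the band, from *Axl* (-1.70 in 4N) to *Tgfb2* (3.37 in unsorted cells), and the upstream genes outside it, 4 in 2N, 1 in 4N and 2 in unsorted cells, are higher, beside 14.9%, 14.1% and 11.7% of all genes called higher.

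LATS2 acts on p53 after failed cytokinesis, and the PIDDosome is a parallel route from extra centrosomes to p53, so 6 genes of that arm were listed. With CYC065, 33.3% of them were called in 2N, 16.7% in 4N and 33.3% in unsorted cells, beside 28.1%, 25.5% and 25.6% of all genes. *Pidd1*, its scaffold, fell in 2N cells from 11.0 to 4.36 CPM (-1.34, -1.56 to -1.13) and in unsorted cells from 8.34 to 3.09 CPM (-1.43, -1.69 to -1.18). Its partner *Cradd* rose from 1.46 to 3.04 CPM in 2N (1.06, 0.68 to 1.46) and from 1.67 to 3.47 CPM in 4N cells (1.05, 0.71 to 1.41). *Cdkn1a*, which encodes p21, fell in unsorted cells from 23.4 to 9.94 CPM (-1.23, -1.38 to -1.09). It had 28.5 and 22.2 CPM in vehicle and CYC065 2N cells, and 23.6 and 15.1 CPM in 4N cells. With CYC065 its 4N over 2N log2 ratio was -0.56, short of the threshold, and 3 of the 6 genes were lower and 3 higher in that comparison. *Trp53* was not called, with 243 and 142 CPM in 2N and 244 and 142 CPM in 4N cells. Neither were *Casp2* and *Mdm2* in any comparison, and no gene of this arm was called between 4N and 2N cells, where 2.66% (vehicle) and 3.58% (CYC065) of all genes were.

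The genes whose pattern over the 6 libraries was most like a member's were ranked by the root mean square distance of centred log2 levels, among 10807 genes. For *Ankrd1* they were *Mcam*, a cell adhesion molecule (0.19), *Acta2*, smooth muscle actin (0.23), and *Npnt*, a matrix ligand of integrins (0.28). *Acta2* measured 743 and 940.2 CPM in vehicle 2N and 4N cells, 285 and 253 CPM with CYC065, and 231 and 140.4 CPM in unsorted vehicle and CYC065 cells. For *Amotl2* they were *Csrp1* (0.09), *Pdlim5* (0.10) and *Lurap1l* (0.10), and for *Lats2* they were *Tmem143* (0.05), *Tmco1* (0.06) and *Mrps30* (0.07). Over 6 libraries such likeness is a description.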

How the data were processed

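The deposited values are expected counts per gene, which the authors estimated with RSEM after trimming stranded, paired-end, ribosomal RNA-depleted reads with Cutadapt 1.18 and aligning them to mm10 with STAR 2.7.0f, with GENCODE M21 genes. They were neither normalized nor filtered, and 9.66% of genes had a fractional value. The labels and the paper give different versions of bcl2fastq and RSEM. All values of the 10 genes were whole.

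The 3 columns of a condition (18246493 to 20933929 counts each) were rounded and then summed, and the 6 libraries scaled together by TMM in edgeR 4.0.16 (R 4.3.3). Log2 ratios used a pseudocount of 0.5 and genes with at least 30 summed counts in 1 compared library. Intervals of ratios and of proportions inside a library are exact Clopper-Pearson intervals (95%). The difference of ratios and the log2 change of a proportion have a normal interval on log counts, and levels an exact Poisson interval. Library size, DESeq2 1.42.0 size factors, other filters, edgeR and DESeq2 tests on the columns, assumed coefficients of variation and leaving out columns were alternatives. The steps were tested on simulated data. From each list, up to 4 called genes of largest change per comparison are named, and Stk3, Stk4, Nf2, Vgll3, Vgll4, Ccn1, Ccn2, Trp53, Casp2 and Mdm2 were added after their values were seen. Genes, lists and tests were chosen with earlier results of these data known.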

Additional observations from a re-analysis of the deposited data

Results flagged for a closer look

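Some members had log2 ratios of CYC065 to vehicle of opposite sign in different populations. *Lats2* had 0.08 in 2N, -0.08 in 4N and 0.44 in unsorted cells, and scaling by library size only made the 4N value 0.06. *Amotl2* had 0.09 in 2N, -0.25 in 4N and 0.78 in unsorted cells. *Tead3* had -0.46 in 2N and -0.39 in 4N cells but 0.57 in unsorted cells. Each condition is 1 library, so these differences were not tested across cultures.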

How the results depend on the processing

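The number of the 10 genes called was the same in all 6 comparisons under each alternative. *Ankrd1* ranged from -1.74 to -1.57 in 2N, from -2.07 to -1.90 in 4N and from -0.81 to -0.67 in unsorted cells. Of 840 values of single genes under alternatives, 70 moved beyond their counting error, and the largest shift was 0.15. The sign changed under some alternative for 7 of 60 values, which lay between -0.08 and 0.01. The value of *Tead1* in unsorted cells, -0.10, was 0.00 in the DESeq2 fit. Leaving out each column in turn, an alternative added after seeing the data, kept the log2 change of the *Lats2* to *Lats1* proportion with CYC065 between 0.63 and 0.81. Scaling by library size only shifted the median of all genes by 0.14 in both sorted CYC065 comparisons. It also turned the split of calls in 4N cells from 2001 higher and 1619 lower to 2424 and 1222.

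Counts over all genes depended on the treatment of low counts. With no filter, 11669 genes were called in 2N, 10878 in 4N and 10320 in unsorted cells, 5457 and 7212 between 4N and 2N cells with vehicle and CYC065, and 9494 in the difference of ratios. For the last 3, a minimum of 100 counts gave 120, 216 and 309, an interval wholly beyond 1 gave 70, 163 and 107, and an assumed coefficient of variation of 0.2 gave 21, 43 and 15, beside 356, 508 and 1030. A coefficient of 0.1 gave 230 with vehicle and 141 in the difference of ratios, where edgeR on the columns gave 549 and DESeq2 342. Leaving out columns gave 377 to 429 with vehicle and 1116 to 1167 in the difference of ratios.

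With a replicate block, edgeR called 3939, 3605 and 3580 genes in 2N, 4N and unsorted cells, 321 and 460 between sorts, and 531 in the difference of ratios, against 3938, 3599, 3571, 318, 459 and 549 without it. Same-numbered columns did not deviate together throughout, with correlations of -0.232 to 0.454 over 15 pairs, so the numbers were not taken as pairs. The spread between cultures was not measured, and no alternative replaces it.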
